A study of Mus musculus with 6 samples.

Results

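The 200 gene spans described here were densely covered by peaks of 5-hydroxymethylcytosine (5hmC) in immature myeloid cells carrying the leukaemia fusion AML1-ETO. They are the densest of the mouse autosomal protein-coding gene spans of at least 20 kb. Shorter genes and stretches between genes were not ranked. A span runs from the start to the end of a RefSeq protein-coding gene on GRCm38. All 9576 autosomal spans of at least 20 kb were ranked by the share of their bases that lay under the authors' peaks, taking for each span the smallest of its shares in 4 libraries, and the highest 200 were kept. The shares within spans therefore chose the members and are given as a description, without a test.

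The libraries were made by immunoprecipitating sonicated genomic DNA with a polyclonal antibody to 5hmC and sequencing what it bound. KO cells were Tet2-/- and had been given 200 nM 4-hydroxytamoxifen for 2 passages (4 days) to activate CreER, a Cre recombinase that responds to this drug, while flox cells were Tet2fl/fl and had been given ethanol. All cells came from Kit-enriched bone marrow of C57BL/6 Tet2fl/fl;CreER mice, carried AML1-ETO and GFP from a MigR1 retrovirus, grew with SCF, IL-3 and IL-6, and were sorted at passage 5 as GFP+ CD11b- Gr1- CD16/32+. Each genotype had 2 libraries, made with 14 PCR cycles and run in lane 3. Retroviral AML1-ETO was present in both genotypes, and the drug only in KO cultures, so what the drug or Cre activity did by itself and what Tet2 loss did cannot be told apart. The labels do not say that replicates were separate cultures, so differences between replicates may be technical. Peak lists hold no expression values, so the sorted cell type could not be checked against its markers.

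TET enzymes make 5hmC by oxidising 5-methylcytosine, and Tet2 is a TET enzyme that is often mutated in myeloid malignancy. In many tissues 5hmC is found in the bodies of transcribed genes and at enhancers. A peak marks a stretch where the antibody pulled down more DNA than the peak caller's background, and a span with many or wide peaks is called densely covered here. The share of bases under peaks is not a level of 5hmC per cytosine.

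The authors' lists held 116539 and 122101 peaks in KO replicates 1 and 2, against 118727 and 118522 peaks in flox replicates 1 and 2. Those peaks covered 110.302 and 111.139 Mb in KO cells and 113.346 and 110.295 Mb in flox cells. Read depth was unknown, and the IgG control and the input library were not used here. Where a pair of values follows a genotype below, it gives replicates 1 and 2 in that order.

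The stretches just before the densest spans were called in some genes and bare in others, and 6 promoter windows are printed to show both. Each window is the 250 bases before a RefSeq start (GRCm38.p6, RefSeq sequence) and lies wholly outside the span, so none of its bases entered the share that chose the member. Windows are read 5′ to 3′ along the gene, with CG dinucleotides, where mammalian DNA is mostly methylated and hydroxymethylated, in capitals. The first 3 lay wholly under peaks in all 4 libraries and are those of Lrrc4b, a synaptic adhesion protein, Pde2a, a phosphodiesterase of cyclic nucleotides, and Ttbk1, a kinase of tau and tubulin in neurons.
Lrrc4b promoter window, chr7:44442237-44442486, plus strand: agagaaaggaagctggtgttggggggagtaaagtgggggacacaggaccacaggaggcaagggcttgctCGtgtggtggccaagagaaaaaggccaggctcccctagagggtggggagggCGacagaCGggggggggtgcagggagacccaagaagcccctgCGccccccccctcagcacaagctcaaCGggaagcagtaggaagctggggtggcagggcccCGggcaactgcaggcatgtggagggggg
Pde2a promoter window, chr7:101421441-101421690, plus strand: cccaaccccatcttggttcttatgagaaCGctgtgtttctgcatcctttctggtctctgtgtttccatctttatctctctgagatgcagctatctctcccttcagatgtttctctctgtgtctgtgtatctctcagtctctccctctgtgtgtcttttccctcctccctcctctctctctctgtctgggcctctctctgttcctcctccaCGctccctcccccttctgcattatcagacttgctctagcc
Ttbk1 promoter window, chr17:46487676-46487925, minus strand: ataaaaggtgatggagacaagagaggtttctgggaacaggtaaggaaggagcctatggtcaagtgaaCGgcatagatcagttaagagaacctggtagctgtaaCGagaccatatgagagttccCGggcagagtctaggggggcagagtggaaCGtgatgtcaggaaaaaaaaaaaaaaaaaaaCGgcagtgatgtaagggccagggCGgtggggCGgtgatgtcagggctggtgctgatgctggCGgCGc
The next 3 had no called base in any library and are those of Dlg4, which encodes the postsynaptic scaffold PSD-95, Muc6, a gel-forming mucin of the stomach, and Otop2, a proton channel.
Dlg4 promoter window, chr11:70016953-70017202, plus strand: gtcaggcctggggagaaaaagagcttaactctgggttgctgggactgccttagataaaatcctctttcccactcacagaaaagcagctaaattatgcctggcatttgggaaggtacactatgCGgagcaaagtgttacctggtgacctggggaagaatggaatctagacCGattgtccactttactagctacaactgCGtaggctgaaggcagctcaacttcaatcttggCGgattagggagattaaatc
Muc6 promoter window, chr7:141655394-141655643, minus strand: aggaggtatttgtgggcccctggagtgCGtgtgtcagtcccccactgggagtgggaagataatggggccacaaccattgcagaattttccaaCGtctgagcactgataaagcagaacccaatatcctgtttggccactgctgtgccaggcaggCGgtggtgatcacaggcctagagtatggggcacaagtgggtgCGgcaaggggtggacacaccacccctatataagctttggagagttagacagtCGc
Otop2 promoter window, chr11:115306913-115307162, plus strand: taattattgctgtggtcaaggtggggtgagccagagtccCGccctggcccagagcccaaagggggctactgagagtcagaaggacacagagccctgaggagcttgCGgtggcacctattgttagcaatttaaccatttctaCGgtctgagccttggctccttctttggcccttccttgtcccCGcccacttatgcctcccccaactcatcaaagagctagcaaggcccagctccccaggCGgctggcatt
The called windows held 6 (Lrrc4b), 2 (Pde2a) and 9 (Ttbk1) CG dinucleotides, and the uncalled windows held 4 (Dlg4), 5 (Muc6) and 5 (Otop2). In Otop2 the widest region lay within the span, downstream of the bare window, at chr11:115318772-115320720. That region also lies inside Ush1g (chr11:115315192-115333736), a gene that overlaps Otop2, so it cannot be assigned to Otop2 alone.

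The start table matched 154 of the 200 members and 7415 of the other spans, taking for each gene the outermost start that the table lists. That start can lie inside a span that runs to a longer transcript, and the window lay wholly outside the span in 66 members and in 3225 other spans. Of those 66 windows, 10 (15.2%) had called bases in all 4 libraries, against 162 (5.02%) of the other windows. No library called any base in 38 of the members' windows (57.6%), against 86.7% of the other windows. Per library, 25.8% and 27.3% of the members' windows were called in KO cells, against 30.3% and 28.8% in flox cells. A peak that crosses the start counts both in the window and in the span, so these shares are not independent of the choice of members. Members' windows held a median of 7 CG dinucleotides and other windows 13, at a GC content of 56.0% and 58.8%. The letters TGTGGT, the core bound by RUNX factors, searched on both strands, occurred in 10 members' windows (15.2%) and in 356 other windows (11%).

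In the KO libraries the median member had 20.9% and 20.6% of its span under peaks, and in the flox libraries 21.9% and 21.6%. The other 9376 spans had medians of 3.38% and 3.37% in KO cells and 3.56% and 3.44% in flox cells. The smallest share had a median of 18.5% over members, against 2.43% over all spans. It reached 30% in 12 members, and it was at least 20% in 78. For a typical member the 2 KO libraries differed by 2.06 percentage points and the 2 flox libraries by 2.04. The group means differed by 1.52. A mean of 2 libraries varies less than a single library, so these values do not rank genotype against replicate differences.

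Spans chosen as densest from the libraries of either genotype were mostly dense in those of the other genotype too. When the densest 200 spans were chosen from the KO libraries alone, their median share in the flox libraries was 21.7% and 21.7%, against 3.56% and 3.44% for the spans not chosen. Chosen from the flox libraries alone, the densest 200 had medians of 20.2% and 20.4% in the KO libraries, against 3.38% and 3.37%. The lowest share of a chosen span was 9.33% and 3.55% in the flox libraries, and 4.87% and 5.21% in the KO libraries. Of the 200 spans, 171 chosen in KO cells and 156 chosen in flox cells were members. All 4 libraries entered the rule and shared a sorted cell type and a lane, so these values are a description and no independent support.

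**Figure D1:**
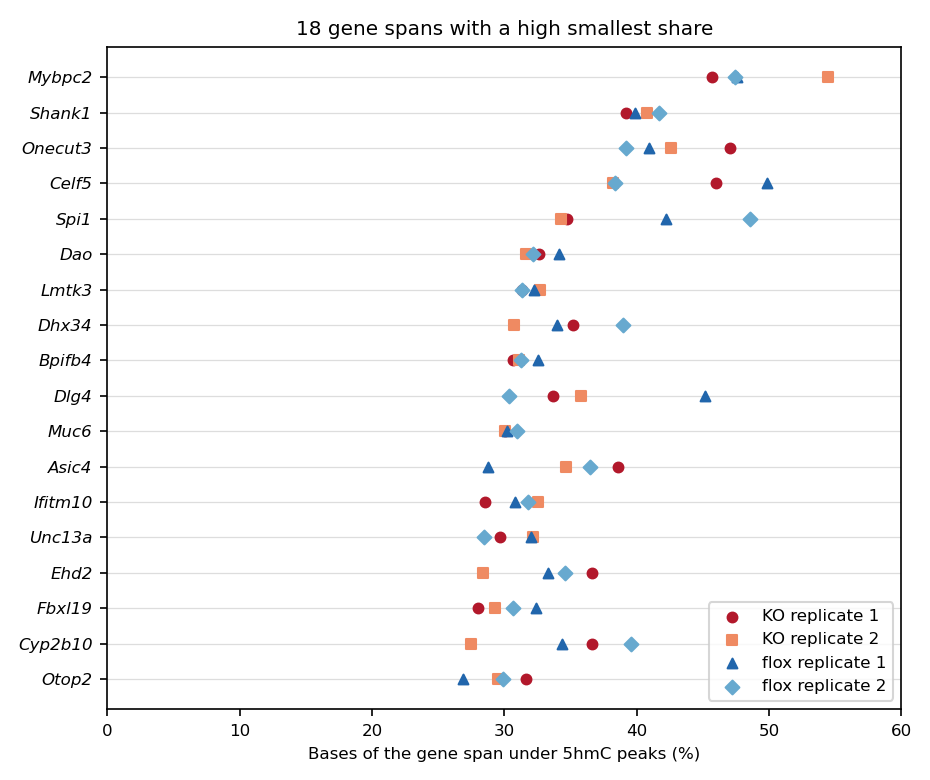
Share of the gene span under 5hmC peaks (percent) in each of the 4 libraries for 18 of the spans with the highest smallest share; circles and squares are KO replicates 1 and 2, triangles and diamonds flox replicates 1 and 2. Shank1 lies between 39.2% and 41.7%, and in Spi1 both KO points lie below both flox points.

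Members were sorted by hand into 6 role groups after the shares were seen, which left 92 members ungrouped, so the group sizes do not show that any role was more frequent than among other spans. The group of synapse and nerve cell signalling held 33 members, with a median smallest share of 21.7%, and some neuronal genes, such as Grin2d, were not placed in it. Shank1, a scaffold protein of the postsynaptic density, had 39.2% and 40.8% of its span under peaks in KO cells and 39.9% and 41.7% in flox cells. All 4 values lay within a few points and the genotypes overlapped. Regions were made by merging overlapping peaks of the 4 lists, and the widest of Shank1 spanned 6652 bp (chr7:44355554-44362205) and was called over 5896 and 4696 bp in KO cells, against 5122 and 5995 bp in flox cells. That region reaches into the neighbouring member 1700008O03Rik, whose span overlaps that of Shank1. Celf5, an RNA-binding splicing regulator, was less even, with 46.0% and 38.2% in KO cells and 49.8% and 38.3% in flox cells. In Celf5 replicate 1 was the higher library in both genotypes. Dlg4 had 33.6% and 35.8% in KO cells, against 45.2% and 30.3% in flox cells, so the KO values lay between the flox values. Unc13a, which primes synaptic vesicles, had 29.7% and 32.2% in KO cells and 32.0% and 28.4% in flox cells. The genotypes overlapped in Unc13a. Nrxn2, a presynaptic adhesion protein, was long for a member (114462 bp) and had 23.5% and 25.6% in KO cells, below 27.8% and 27.9% in flox cells. Receptor and channel genes of the group included Asic4, of the acid-sensing channel family, with a smallest share of 28.7%, Grik5, a kainate receptor subunit, with 22.1%, and Cacna1g, a T-type calcium channel, with 16.4%.

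Muscle genes were also present in these blood cells' densest spans. The striated muscle group had 8 members and a median smallest share of 18.6%. Mybpc2, the fast skeletal form of myosin-binding protein C, ranked second of all spans, with 45.7% and 54.5% in KO cells and 47.6% and 47.4% in flox cells. The flox values fell between the KO values. A region of 5559 bp in its span, chr7:44516532-44522090, was called in all 4 libraries, over 5056 and 5079 bp in KO cells and 4147 and 4676 bp in flox cells. Ryr1, the calcium release channel of skeletal muscle, kept a high density over 121840 bp, with 18.5% and 18.4% in KO cells, against 19.8% and 19.7% in flox cells. Myh7, the slow myosin heavy chain, had 17.6% and 17.7% in KO cells and 18.2% and 19.1% in flox cells. In Ryr1 and Myh7 the KO values lay below the flox values, by at most a few points.

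The blood and immune cell group had 24 members with a median smallest share of 17.9%. Spi1, which encodes PU.1, a transcription factor that directs myeloid development, was the densest of them and ranked 6 of all spans. Peaks covered 34.7% and 34.3% of its span (chr2:91082374-91115759) in KO cells, against 42.2% and 48.6% in flox cells. Both KO values lay below both flox values. Regions at chr2:91088628-91090035 and chr2:91109203-91110405 were flox-only, meaning that the 2 flox libraries called them and the 2 KO libraries did not, and 1 region at chr2:91106196-91107301 was KO-only, with calls in the 2 KO libraries alone. The widest region of Spi1, 3562 bp at chr2:91093815-91097376, was called in all 4 libraries. Peaks of the one-genotype regions had scores of 51.93 to 115.33 (the authors' score is -10 log10 of the peak's p-value, at least 50 in these lists), around the list medians of 94.46 and 96.56 in KO cells and 94.17 and 93.415 in flox cells, and the widest region had scores of 88.09 to 241.33.

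Pou2f2, which encodes the B-cell transcription factor Oct-2, had 26.4% and 27.1% in KO cells and 28.7% and 29.4% in flox cells. Gna15, a G protein subunit of blood cells, had 26.9% and 25.2% in KO cells and 26.6% and 29.1% in flox cells. The KO values of Pou2f2 lay below its flox values, and those of Gna15 overlapped them. C3, the central complement protein, varied widely between libraries, with 23.7% and 16.8% in KO cells and 29.9% and 37.1% in flox cells. A single region accounted for much of that spread: chr17:57221745-57224820 was called over 840 and 0 bp in KO cells, against 2013 and 3076 bp in flox cells. Vav1, a guanine nucleotide exchange factor of blood cells, lies 50963 bp from C3 and had 22.5% and 16.5% in KO cells and 18.1% and 17.0% in flox cells. Fgr, a myeloid Src-family kinase, had 23.1% and 18.5% in KO cells and 17.3% and 28.0% in flox cells. Neither Vav1 nor Fgr separated the genotypes.

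Some other members of the blood and immune cell group were close to even in all libraries. Lsp1, an actin-binding protein of leukocytes, had 24.8% and 23.1% in KO cells and 23.6% and 24.1% in flox cells. Ciita, the activator of MHC class II genes, had 16.1% and 18.6% in KO cells and 18.3% and 18.5% in flox cells. In Lsp1 the genotypes overlapped, and in Ciita the KO values lay on either side of the flox values. Axl, a receptor kinase that takes part in the clearing of dead cells, was less even, with 21.0% and 26.1% in KO cells and 24.5% and 32.5% in flox cells. Itgad, an integrin of leukocytes, had 20.7% and 22.5% in KO cells, below 25.6% and 24.6% in flox cells.

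Liver, gut and kidney genes formed a group of 16 with a median smallest share of 21.96%. Several of them were alike in all 4 libraries. Muc6 had 30.02% and 30.03% in KO cells and 30.2% and 31.0% in flox cells. Its region of 5089 bp, chr7:141636032-141641120, carried scores of 912.17 and 984.32 in KO cells and 1647.67 and 1946.7 in flox cells. Another Muc6 region called in all 4 libraries, chr7:141651909-141654038, had scores of 361.65 and 450.35 in KO cells and 348.83 and 343.86 in flox cells. The score difference was not tested, and read depth was unknown. Dao, which degrades D-amino acids, had 32.6% and 31.6% in KO cells and 34.1% and 32.2% in flox cells. Bpifb4, of the family of lipid-binding BPI fold proteins, had 30.7% and 31.1% in KO cells and 32.5% and 31.2% in flox cells. These spans spread by less than 3 points over the libraries. The cytochrome P450 genes Cyp2b10 and Cyp2b13 are close paralogs, and the sources used here do not say how reads matching both were placed. Cyp2b10 had 36.7% and 27.5% in KO cells and 34.4% and 39.5% in flox cells, a wide and overlapping spread.

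The group of matrix and developmental signalling genes had 16 members and a median smallest share of 18.6%. Ddr1, a receptor kinase for collagen, had 29.8% and 27.8% in KO cells and 26.7% and 29.0% in flox cells. Rspo1, a secreted enhancer of Wnt signalling, had 26.7% and 30.3% in KO cells and 29.5% and 27.3% in flox cells. The genotypes overlapped in both genes. Vangl2, a planar cell polarity protein, had 26.7% and 24.9% in KO cells, below 36.7% and 30.8% in flox cells.

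Transcription and chromatin genes numbered 11, with a median smallest share of 19.9%. Onecut3, a homeodomain transcription factor, had 47.1% and 42.6% in KO cells and 41.0% and 39.2% in flox cells. Both KO values lay above both flox values, and a KO-only region of 1480 bp lay at chr10:80516121-80517600. Fbxl19, a CpG-island-binding F-box protein, had 28.0% and 29.3% in KO cells and 32.4% and 30.7% in flox cells, a small separation the other way. Kdm6b, which removes methyl groups from histone H3 lysine 27, had 19.9% and 23.9% in KO cells and 22.2% and 31.0% in flox cells. Dnmt3l, a cofactor of the de novo DNA methyltransferases, had 16.4% and 20.4% in KO cells and 19.4% and 17.5% in flox cells. The remaining 92 members were not put in a group, and their smallest shares had a median of 17.2% and lay between 15.1% and 30.7%. Dhx34, a helicase of nonsense-mediated RNA decay, was the densest of them, with 35.2% and 30.7% in KO cells and 34.0% and 39.0% in flox cells. Ifitm10, of the interferon-induced transmembrane family, had 28.5% and 32.6% in KO cells and 30.8% and 31.8% in flox cells. Ehd2, an ATPase of caveolae, had 36.6% and 28.4% in KO cells and 33.3% and 34.6% in flox cells. The genotypes overlapped in all 3.

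The limit of 200 fell in a continuous run of values. The last members inside it were Gse1 (15.1512%), a corepressor subunit, Grin2d (15.148%), an NMDA receptor subunit, Ephb2 (15.1464%), an ephrin receptor, and Tbx5 (15.1239%), a transcription factor of heart and limb, each value being the smallest share. Just outside were Adgrb1 (15.1235%), an adhesion receptor, Chrnb4 (15.1202%), a nicotinic receptor subunit, Gramd1a (15.08%) and Plxnb1 (15.0765%), a semaphorin receptor. Tet2 itself was far from the limit, at rank 4781, with 2.99% and 3.01% in KO cells and 2.43% and 3.43% in flox cells. Runx1, which codes for AML1, ranked 1869, with 6.07% and 8.17% in KO cells and 10.3% and 11.3% in flox cells, so its KO values lay below its flox values.

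**Figure D2:**
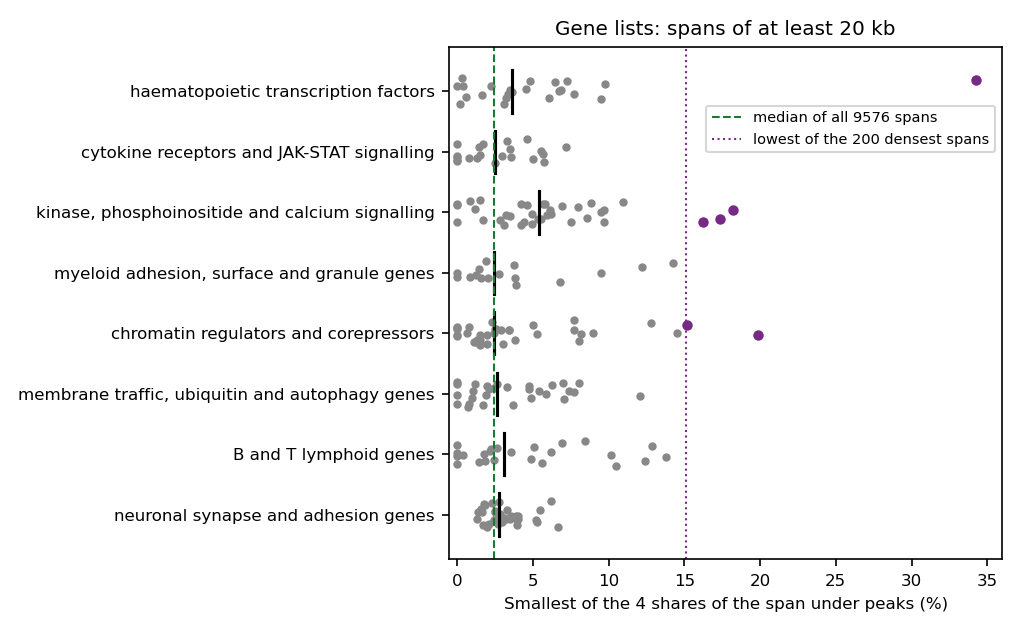
Smallest of the 4 shares of the span under peaks (percent) for the genes of 8 lists with autosomal spans of at least 20 kb; purple points are members, black bars list medians, the dashed line the median of all 9576 spans (2.43%) and the dotted line the lowest member. Spi1 stands alone at 34.3% among haematopoietic transcription factors, and no gene of the neuronal list reaches the dotted line.

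Across 8 lists of genes from pathways of blood cells and of other tissues, members came from 3. Over all spans, 200 of 9576 were members. At that share a list of 16 to 36 spans would hold few members or none, so nothing is read from the counts per list. Of 36 genes of kinase, phosphoinositide and calcium signalling, 3 were members, namely Itpr3, an inositol trisphosphate receptor, Fgr and Prkcd, a protein kinase C, and the list's median smallest share was 5.43%, against 2.43% for all spans. The 23 haematopoietic transcription factors had a median of 3.62% with Spi1 as their single member, and the 36 chromatin regulators and corepressors a median of 2.45% with Kdm6b and Gse1. The lists of cytokine receptors, myeloid surface genes, membrane traffic genes, lymphoid genes and neuronal synapse and adhesion genes had no member, with medians of 2.42% to 3.10%. The neuronal list was made of very long genes, with a median span of 1130020 bp, whereas Lrrc4b (20865 bp) and Shank1 (51179 bp) are examples of the shorter synaptic members above.

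Members were short and lay in crowded places. Their median span was 30908 bp, against 49292 bp for all spans, and 9.0% of them reached 100 kb, against 24.2% of all spans. Ksr2, a scaffold of the Raf pathway, was the longest at 353995 bp, with 17.7% and 17.1% under peaks in KO cells and 18.5% and 17.5% in flox cells. Pear1, a platelet receptor, was the shortest with a gene name other than a Gm or Rik symbol, at 20014 bp. It had 35.9% and 23.5% in KO cells and 19.8% and 40.8% in flox cells, a spread far wider than that of Ksr2. Within 250 kb the median member had 12 other protein-coding genes and the median other span 7. A few peaks can cover a large share of a short span but not of a long one. The rule itself therefore favours spans near its lower limit of 20 kb. The spans compared here were not matched for length, so neither shortness nor crowding is read as a trait of members.

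Chromosome 7 held 40 members (20.0%), against 6.62% of all spans. Chromosome 5 held 26 (13.0%, against 7.07%), and chromosomes 4 and 17 held 21 each (10.5%, against 6.65% and 4.22% of all spans). Gaps of under 100 kb joined 34 pairs of members, involving 54 members in all. On chromosome 7 such runs were Shank1, 1700008O03Rik, Lrrc4b and Mybpc2, then Sult2b1, Lmtk3, Grin2d and Tmem143, and Arhgef1, Grik5, Pou2f2 and Cic. Map4k1, a kinase of blood cells, and Ryr1 lay 60 bp apart. Members of such a run share their surroundings and are not independent of each other. Of the members, 26 (13.0%) overlapped another protein-coding gene, against 18.4% of the other spans, and a peak in an overlap counts for both genes.

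Peaks in members were more numerous, and also longer and higher scored, than elsewhere. Members had a median of 17.4 and 17.9 peaks per 100 kb in KO cells and 17.4 and 18.4 in flox cells, against 3.78 and 3.90 in KO cells and 3.91 and 3.90 in flox cells for the other spans. Their median peak length was 1129 and 1083 bp in KO cells and 1152 and 1111 bp in flox cells, against 901 and 866 bp in KO cells and 909 and 885 bp in flox cells for the other spans. Length and number enter the share by which members were chosen, whereas the score does not enter it directly. Of the members' peaks, 45.7% and 46.0% in KO cells and 45.4% and 46.0% in flox cells were in the highest-scored 25% of their list, against 25.3% to 25.8% of the peaks in other spans. Long peaks tend to score high, so this is not independent of the choice either.

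Members were chosen by the smallest share over the same 4 libraries, which favours regions called in all of them, so the shares of regions that follow are a description. Of 1979 regions, 1264 (63.9%) were called in all 4, against 39.6% of the 61151 regions in the other spans. KO-only regions made up 1.82% and flox-only regions 2.12% of the members' regions, against 2.80% and 3.25% in the other spans. At least 1 KO-only region lay in 31 members (15.5%, against 13.8% of the other spans) and at least 1 flox-only region in 37 (18.5%, against 16.6%). Gse1 had 3 KO-only regions, and Sptbn4, Tsga13 and Gm8439 had 2 each. Spi1, Sez6l, Adgrb2, Gse1 and Grk3 had 2 flox-only regions each. In Gse1 a KO-only region at chr8:120281602-120284650 was called over 2859 and 2922 bp in KO cells and 0 and 0 bp in flox cells, with scores of 67.08 and 444.96 in the KO libraries. Over its whole span, Gse1 had 15.78% and 15.15% under peaks in KO cells and 18.44% and 15.81% in flox cells. Its KO shares thus lay below its flox shares, the opposite direction to that region. Of all bases called in any library within members, 44.8% were called in all 4, against 27.6% in the other spans.

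**Figure D3:**
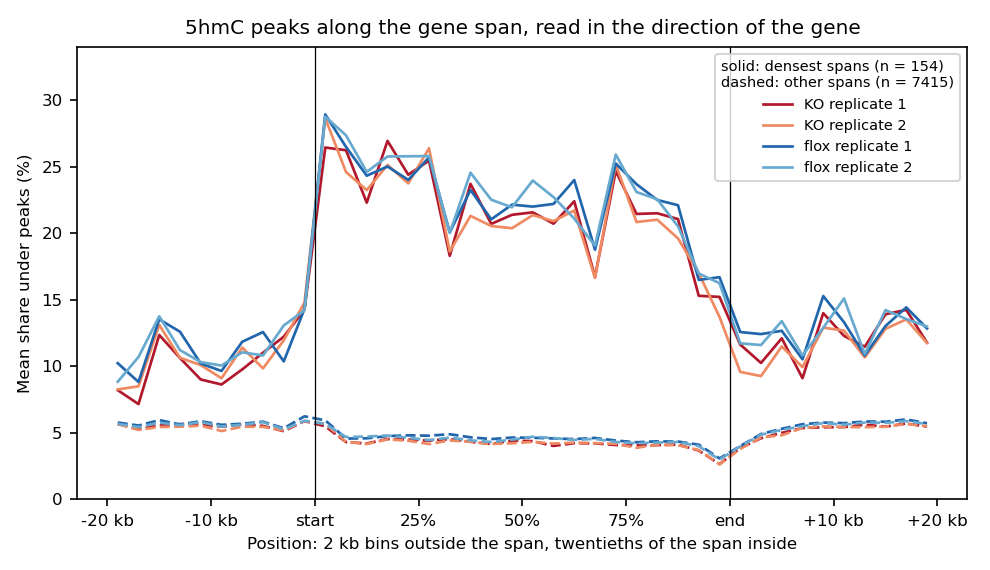
Mean share of bases under peaks (percent) in twentieths of the span and in 2 kb bins up to 20 kb outside it, read along the gene, in each library; solid lines are the 154 members with a known start and direction, dashed lines 7415 other spans. Members average 26.4% to 28.9% in the first twentieth and 13.7% to 16.7% in the last. The first twentieth is the highest in every library but KO replicate 1, where the fourth reaches 26.9%.

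The coverage was not even along the gene. In the first twentieth of the span, members averaged 26.4% and 28.6% of bases under peaks in KO cells and 28.9% and 28.8% in flox cells. At the middle they averaged 21.5% and 20.9% in KO cells and 22.1% and 23.0% in flox cells. In the last twentieth they averaged 15.2% and 13.7% in KO cells and 16.7% and 16.2% in flox cells. The 7415 other spans had the same order at a lower level, from 5.47% and 5.66% (KO) and 5.92% and 5.66% (flox) in the first twentieth to 2.63% and 2.61% (KO) and 3.06% and 2.97% (flox) in the last.

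The flanks were not used by the rule, and they too were denser around members. In the 2 kb before the start, members had 14.3% and 14.8% of bases under peaks in KO cells and 14.3% and 14.2% in flox cells, against 5.87% and 5.87% in KO cells and 6.23% and 5.89% in flox cells for the other spans. At 18 to 20 kb upstream, members still had 8.19% and 8.25% in KO cells and 10.2% and 8.82% in flox cells, against 5.65% and 5.65% in KO cells and 5.76% and 5.66% in flox cells. These flanks of members were thus covered more than those of other spans, and the 2 kb before the start about as much as the last twentieth within the members. Because 54 members lay within 100 kb of another, some of these flanks are parts of other members.

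RefSeq places 30 miRNA hairpins in 15 members, and 15 of the hairpins lie in Rtl1 alone. Called bases were found in 5 (16.7%) and 7 (23.3%) of the hairpins in KO cells and in 4 (13.3%) and 5 (16.7%) in flox cells, beside 20.8% and 20.6% (KO) and 21.8% and 21.8% (flox) of all bases of the members. No library called a base in 20 of them. The 2 hairpins called in all 4 libraries were Mir1963 in Ryr1 and Mir6978 in C3. Their mature sequences are printed from RefSeq with the seed, bases 2 to 8, in capitals, followed by miR-433-5p, whose hairpin in Rtl1 differed most between the genotypes.
mmu-miR-1963: uGGGACGAgaucaugaggccuuc
mmu-miR-6978-5p: aAGGGGUGagagagaagcuggug
mmu-miR-6978-3p: aCGGCUUCacucucacccugcag
mmu-miR-433-5p: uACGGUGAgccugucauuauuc
No seed is shared among these 4. The hairpin of Mir433 was covered over 100% and 100% of its bases in KO cells, against 0% and 12.9% in flox cells. Rtl1, a retrotransposon-derived gene of the imprinted region on chromosome 12, had 23.8% and 28.8% of its span under peaks in KO cells and 22.9% and 25.4% in flox cells. Mir433 was picked out after its values were seen, and over Rtl1 as a whole the genotypes overlapped. Mir139, in Pde2a, was covered over 0% and 100% in KO cells and 0% and 100% in flox cells, so its difference lay between replicates.

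**Figure D4:**
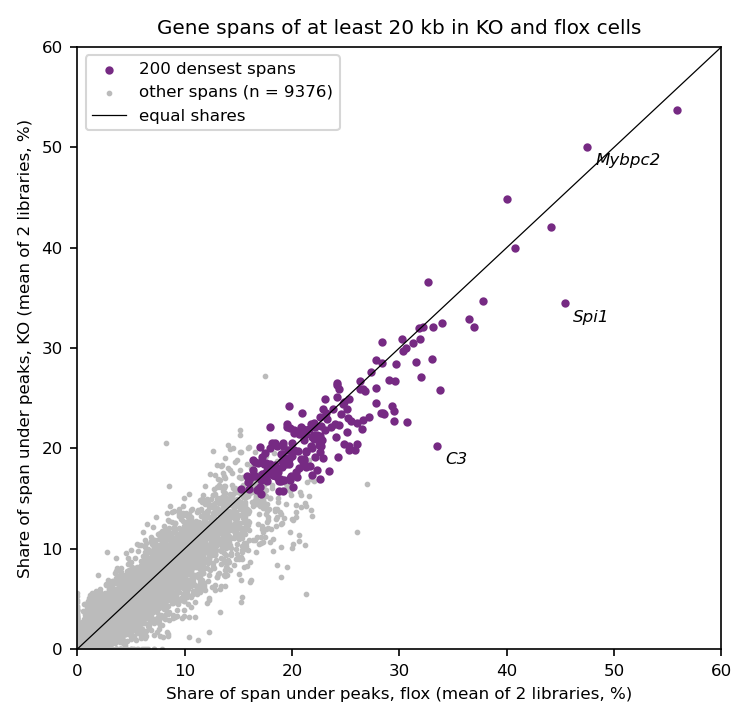
Share of the span under peaks (percent, mean of 2 libraries) in KO cells on the y axis and in flox cells on the x axis for the 200 members (purple) and the other 9376 spans (grey), with the line of equal shares. Members follow the line, and C3 and Spi1 lie farthest below it among the labelled genes.

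No member passed the test between KO and flox cells. Called length per span, scaled so that every library had an equal total, was tested as log2(bp + 500) with limma over the 10710 protein-coding spans with a mean of at least 500 called bp, and all 200 members had enough called length to be tested. At a Benjamini-Hochberg adjusted p of 0.05, 0 spans were called (0% of those tested), and the smallest adjusted p was 0.766. An unadjusted limma p under 0.05 was found for 690 spans (6.44% of those tested), of which 469 (4.38%) were lower and 221 (2.06%) higher in KO cells. Among members, 7 had such a p, all with less called length in KO cells, and they were Prex1, Nfatc2, Htra3, C3, Spi1, Sez6l and Kif17. Because the rule takes the smallest share of the same libraries, nothing is read from these counts about members as a set.

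The members' differences centred close to 0. Their median log2 difference, KO minus flox, was -0.04, against -0.03 for all spans tested, with a range of -0.67 to 0.30. The mean was lower in KO cells for 120 members (60%), against 54.2% of all spans. The 2 KO libraries were both under the 2 flox libraries in 47 members (23.5%), against 21% of all spans tested, and above them in 18 (9.0%), against 14.8%. The libraries compared here are those the rule used, and nothing is read from these shares.

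**Figure D5:**
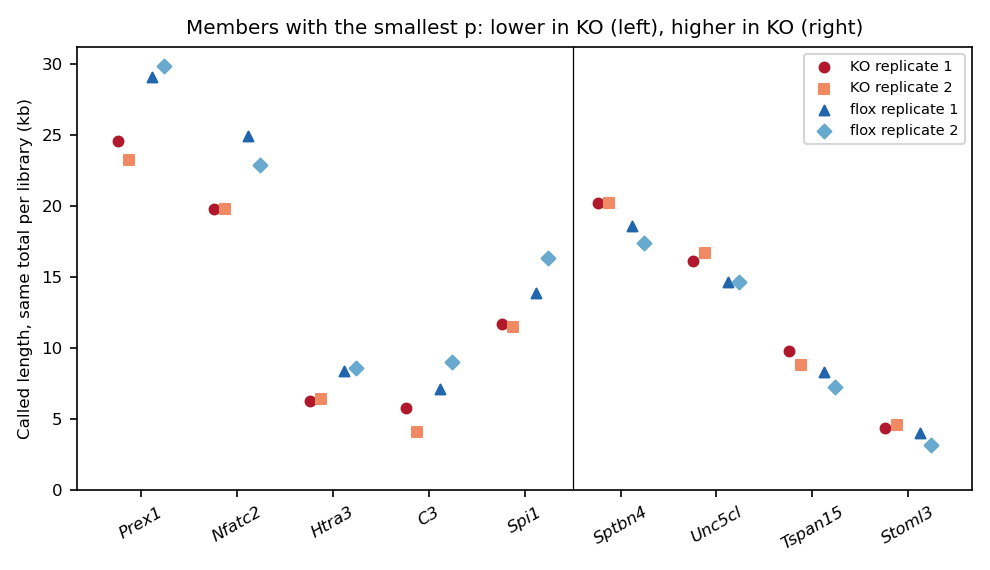
Called length (kb, scaled to an equal total per library) of the 5 members with the smallest limma p that were lower in KO cells and of 4 that were higher; circles and squares are KO replicates 1 and 2, triangles and diamonds flox replicates 1 and 2. The groups do not overlap in any of the 9, which is part of how they were picked, and none passed the adjusted threshold.

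The 5 members with the smallest p and less called length in KO cells had adjusted limma p-values of 0.766. Prex1, an exchange factor for Rac in neutrophils, had 24574 and 23251 bp of scaled called length in KO cells, against 29120 and 29879 bp in flox cells. The log2 difference was -0.30 ± 0.08 (SE of the limma fit, n = 2 libraries each). That SE, here and below, draws on the spread of the other spans tested as well as on the gene's own 4 values. Its clearest single region, chr2:166672456-166676687, was called over 1889 and 1715 bp in KO cells and over 3829 and 4161 bp in flox cells. Nfatc2, a calcium-regulated transcription factor of lymphocytes, had 19773 and 19814 bp in KO cells, against 24920 and 22879 bp in flox cells. Htra3, a secreted serine protease, had 6229 and 6413 bp in KO cells, against 8408 and 8565 bp in flox cells. In these 3 genes the replicates of a genotype lay closer together than the nearest values of the 2 genotypes. C3 had 5781 and 4071 bp in KO cells and 7091 and 9037 bp in flox cells, a difference of -0.67 ± 0.23 that was -0.44 without KO replicate 2 and -0.39 with peaks scoring at least 100. Spi1 had 11701 and 11449 bp in KO cells, against 13839 and 16364 bp in flox cells, a difference of -0.37 ± 0.13 that was -0.12 with peaks scoring at least 100. In C3 and Spi1 the flox libraries differed from each other by more than the nearest KO and flox values did.

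The members described with more called length in KO cells had adjusted limma p-values of 0.827 to 0.836. Sptbn4, the spectrin of the axon initial segment, had 20236 and 20246 bp in KO cells, against 18599 and 17424 bp in flox cells, a log2 difference of 0.16 ± 0.09. Unc5cl, Tspan15, a tetraspanin, and Stoml3, a stomatin-like protein of mechanosensation, had differences of 0.16, 0.25 and 0.29. Without flox replicate 2 those of Tspan15 and Stoml3 were 0.16 and 0.15.

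Of the 24 members of the blood and immune cell group, 19 had a lower mean in KO cells and 5 a higher one. A lower mean was found in 60% of the 200 members and in 54.2% of all spans tested. Of the 7 members with an unadjusted limma p under 0.05, 4 belonged to this group, which held 24 of the 200 members. Over all 10710 spans tested, 690 (6.44%) had such a p. The matrix group had 11 lower and 5 higher, the transcription and chromatin group 7 lower and 4 higher, the synapse group 19 lower and 14 higher, the liver, gut and kidney group 10 lower and 6 higher, and the muscle group 4 lower and 4 higher. Median log2 differences were -0.09 in the blood and immune cell group, -0.09 in the matrix group, -0.08 in the transcription and chromatin group, -0.03 in the synapse group and -0.02 in the liver, gut and kidney group. The groups were made by hand after the shares were seen, and the libraries are those the rule used. Directions are not given for the 92 ungrouped members. The difference between groups was not tested, and nothing is read from these counts. Without KO replicate 2 the count of lower blood and immune cell members was 15, and without KO replicate 1 it was 21.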

How the data were processed

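Immunoprecipitated 5hmC DNA was compared in 2 KO and 2 flox libraries, grouped by the sample titles. Per the submitters' processing notes, CASAVA 1.8, Bowtie and MACS 1.4 were used on build GRCm38 (mm10), in roles not stated. Caller settings, its control library and the handling of duplicates were not given in the sources used here. Every deposited file lists the peaks of 1 library with the authors' score and p-value per peak; the deposited score was checked to equal -10 log10 of its p-value to within 0.02, and the lowest was 50. A caller with more reads can call more and wider peaks, and depth was unknown.

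Called length is the number of bases of a RefSeq span (GRCm38.p6) under peaks. Promoter windows were used where they lay wholly outside the span. Regions merge peaks that overlap by 1 bp or more. Limma 3.58.1 (R 4.3.3, trend and robust, two-sided) was fitted on log2(bp + 500), a scale that understates differences at low called length, and was checked on simulated data. Python 3.11.15, pandas 2.3.3, numpy 2.4.6 and matplotlib 3.10.9 were used. The members, the gene lists and the tests were chosen with earlier results of these data known.

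Named genes were the 20 densest members, the 5 with the smallest p in each direction whose groups did not overlap (leaving out Gm and Rik symbols), the 4 spans on each side of the limit, the longest and shortest members, those with the most one-genotype regions, up to 4 top genes of each list, Tet2 and Runx1; genes named as examples of a role group, members of neighbouring runs and miRNAs were chosen after their values were seen. Some genes that the rule gives, and 1 of the 9 gene lists, are not reported here. Alternatives were other score limits, span lengths, pseudocounts, filters and scalings, peak numbers in place of bases, 5 kb flanks, leaving out each library, and a replicate block.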

Additional observations from a re-analysis of the deposited data

How the results depend on the processing

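Which spans were densest depended on the rule's settings. Of the 200 members, 132 were kept with the 50000 highest scored peaks of each list, 137 with peaks scoring at least 100, 150 with 5 kb added at both ends and 172 when ranked by the mean of the libraries. With a shortest span of 10 kb, 86 members stayed among the top 200, and with 50 kb, 56, which are all the members that long. Leaving out 1 library kept 178 to 190. The median share over members was 15.1% in KO cells and 15.5% in flox cells with scores of at least 100, 14.1% and 15.3% (KO, flox) with the 50000 highest scored peaks, and 18.8% and 19.8% (KO, flox) with the flanks, against 20.7% and 21.8% (KO, flox) as reported. No span passed the adjusted threshold in the limma fits under any setting tried, with 417 to 914 unadjusted p-values under 0.05. The fit with a replicate block gave 0 calls and 620 unadjusted p-values under 0.05, 3 of them in members; same-numbered libraries did not deviate together (r = 0.00221 over 10710 genes), so the block is no test of pairing. Leaving out 1 library gave 110 to 127 members lower in KO cells and a median log2 difference of -0.06 to -0.01. Among named genes 3 values changed sign: Sptbn4 was at -0.073 with scores of at least 100 and at -0.036 with the 50000 highest scored peaks, and Unc5cl at -0.15 by number of peaks. With scores of at least 100 the log2 difference was -0.16 in Nfatc2 and -0.16 in Htra3, 0.26 in Unc5cl, 0.14 in Tspan15 and 0.18 in Stoml3; with the 50000 highest scored peaks it was -0.14 in Prex1, -0.13 in Nfatc2, -0.62 in Htra3, -0.23 in Spi1, 0.37 in Unc5cl and 0.07 in Tspan15. By number of peaks it was -0.13 in Htra3, 0.16 in Tspan15 and 0.17 in Stoml3, and with 5 kb flanks 0.06 in Unc5cl. The causes were not tested. The count of blood and immune cell members lower in KO cells ran from 14 (number of peaks) to 21 under alternatives chosen after seeing the data. Peak lists carry no depth, so weak peaks missing from 1 list cannot be told from absent 5hmC.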
